A study of Mus musculus with 6 samples.

Results

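The 10 genes described here encode cytokines of the interleukin-1 (IL-1) and interleukin-6 (IL-6) families, TSLP, and the antagonist and receptor that set the response to IL-1. They are Il1a, Il1b, Il1rn, Il1r1, Il6, Il11, Lif, Osm, Il33 and Tslp. They and the gene lists used below were chosen by name, with earlier results of these data known. The 10 were matched by Ensembl identifier, and all 10 were found among the 37991 genes of the deposited count tables. RNA was sequenced from 6 mouse tumours of cutaneous squamous cell carcinoma, a cancer of skin keratinocytes. Of the libraries, 3 (WT1 to WT3) came from tumours of genotype Kindlin-1 WT, which express Kindlin-1, and 3 (Null1 to Null3) from tumours of genotype Kindlin-1 Null, in which it was knocked out. Kindlin-1, the product of Fermt1, is an adaptor that binds integrin tails. All 6 carry the same cell line label, cutaneous squamous cell carcinoma. The sources used here do not give the strain, age or sex of the mice, the number of null clones or the site of growth. The titles give WT1 and WT2 the mouse number 238 and Null2 and Null3 the mouse number 242, so n = 3 counts libraries and may not count animals. For Null3 the name of the deposited file carries a different mouse number from the title, so whether Null2 and Null3 share a mouse is uncertain, and values that sum or pair them follow the titles.

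IL-1 alpha and IL-1 beta bind the receptor IL-1R1, which recruits the accessory chain IL-1RAP and signals through MyD88 to NF-kB. The antagonist encoded by Il1rn occupies the same receptor without signalling. IL-33 belongs to the same family but binds ST2, the product of Il1rl1. IL-6, IL-11, LIF and oncostatin M each use their own receptor chain together with gp130, the product of Il6st, and signal through JAK kinases to STAT3. TSLP is a cytokine of epithelial and stromal cells that binds a pair of chains encoded by Crlf2 and Il7r. In skin, IL-1 alpha, IL-33 and TSLP are known as alarm signals of damaged keratinocytes.

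Depth and tissue set limits on these genes. Reads assigned to genes ranged from 161711 in WT2 to 31487255 in Null2, and 1 read in WT2 was worth 6.09 CPM (CPM are read counts scaled to a common library total, here with TMM factors). Fermt1 had 16, 2 and 1040 reads in WT1 to WT3, or 12.4, 12.2 and 64.5 CPM. It had 0, 2 and 2 reads in Null1 to Null3, at most 0.391 CPM. The libraries thus went with their labels, but the value of WT2 rests on 2 reads. WT3 stood well above the other wild-type libraries for this gene too. Keratinocyte markers were sparse. Krt5, a keratin of basal keratinocytes, had between 0 and 5 reads per library, and Krt1, Krt6b and Dsg3 had 0 in all 6. Krt14 was present in every library and fell, with 35.9 ± 9.43 CPM in the WT group and 8.55 ± 3.01 CPM in the Null group (SD, n = 3; edgeR adjusted p = 0.01). Of 10 tested keratinocyte markers 2 fell, Krt14 and Perp, and 1 rose, Krt15, with 3.3 ± 3.51 CPM in the WT group and 19.3 ± 8.04 CPM in the Null group (edgeR adjusted p = 0.0283). Over all genes tested 3.52% fell and 2.26% rose. Markers of other cells were plentiful, with 10 fibroblast genes summing to between 8273 and 17585 CPM and 12 macrophage genes to between 3835 and 7750 CPM. In such bulk samples fewer cells of a type and less RNA per cell cannot be told apart.

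Of the 10 genes, 7 passed edgeR's default expression filter and were tested, and 1 of these, Tslp, changed (edgeR's quasi-likelihood test, Benjamini-Hochberg adjusted p at most 0.05). Over all 11887 genes tested, 5.79% changed, 2.26% upwards and 3.52% downwards, and 25.1% had an unadjusted p of at most 0.05. A gene can pass the filter through 1 group alone. Tslp was higher in the Null tumours. The fitted values of Il1b, Il1rn, Il33 and Il1r1 were above 0 and those of Lif and Osm below 0, and none of these 6 passed. Il1a, Il6 and Il11 were too sparse to be tested. The null and wild-type values lay apart for Tslp, Il1r1 and Osm, 3 of the 7 tested genes, against 30.5% of all tested genes.

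**Figure D1:**
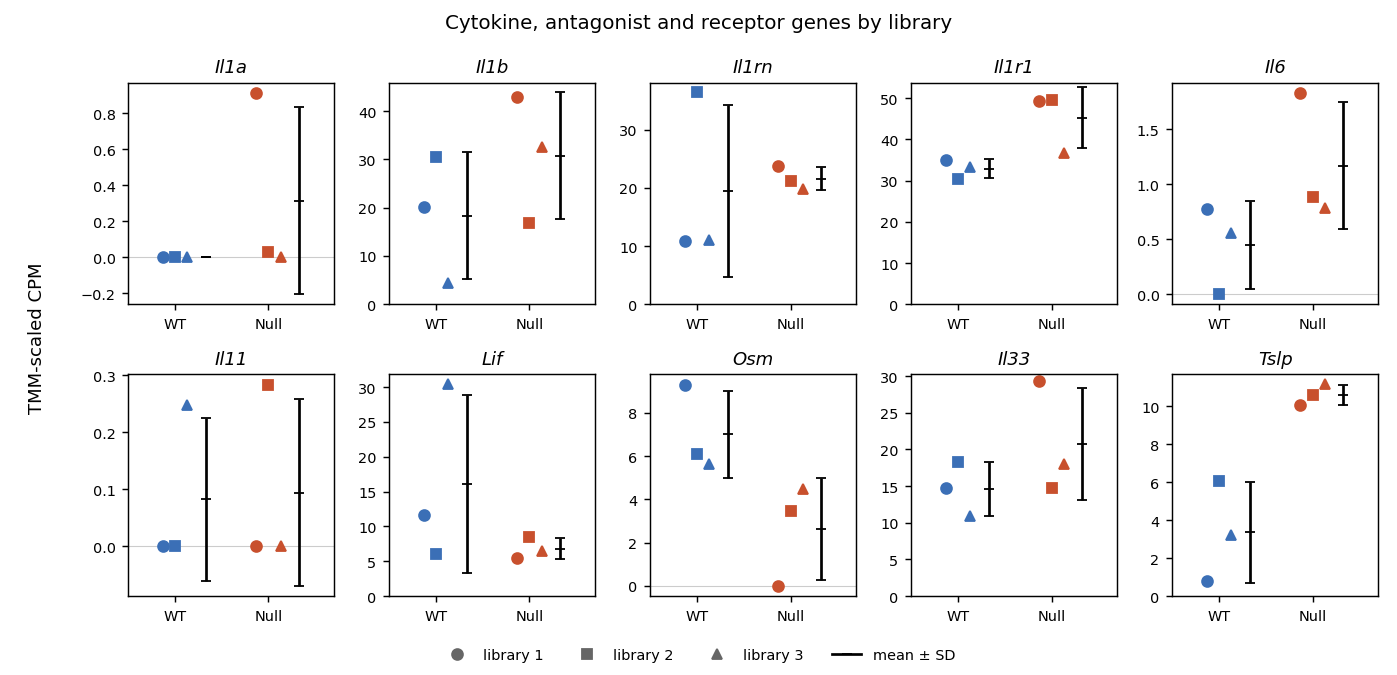
Each panel plots 1 gene, with TMM-scaled CPM on the vertical axis and the groups on the horizontal axis; symbols are libraries 1 to 3 and the black bar is the mean ± SD of 3 libraries, which can reach below 0. Tslp stood at 10.1 to 11.2 CPM in the null libraries, above all wild-type values, while Lif was highest in WT3 at 30.5 CPM.

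The promoter sequences of Il1b and Lif are shown because these genes had the largest fitted differences, after Tslp, among the tested genes, and in opposite directions. Each is the stretch of 250 bases before the start site in RefSeq's build GRCm38.p6, written in the direction of transcription, with motif matches in capitals. Of the 10 genes, 8 have at least 1 entry in that promoter table. Il1b is at chr2:129371140-129371389 on the minus strand and Lif at chr11:4257318-4257567 on the plus strand.
Il1b: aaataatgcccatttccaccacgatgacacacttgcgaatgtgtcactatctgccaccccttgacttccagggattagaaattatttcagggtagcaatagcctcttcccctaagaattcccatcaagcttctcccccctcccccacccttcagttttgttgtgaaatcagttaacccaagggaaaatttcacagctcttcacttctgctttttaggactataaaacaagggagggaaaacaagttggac
Lif: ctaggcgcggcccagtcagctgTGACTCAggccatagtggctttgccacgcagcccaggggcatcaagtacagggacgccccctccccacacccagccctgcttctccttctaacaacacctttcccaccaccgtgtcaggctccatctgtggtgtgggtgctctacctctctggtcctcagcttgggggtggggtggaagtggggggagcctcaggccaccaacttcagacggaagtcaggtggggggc

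Both strands were searched for the AP-1 motif TGANTCA, the STAT motif TTCNNNGAA, the cyclic AMP motif TGACGTCA and the NF-kB motif. The Lif window holds 1 AP-1 match, TGACTCA, which begins 228 bases before the start site, and no other match. The Il1b window holds none of these letters. Of 32851 RefSeq windows of the same length, 6.75% hold the AP-1 motif, 7.02% the STAT motif, 1.55% the cyclic AMP motif and 3.9% the NF-kB motif. The matches describe the sequence and say nothing of binding in these tumours.

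Among the IL-1 ligands, Il1a was close to undetected and Il1b was present in every library. Il1a (ENSMUSG00000027399), the IL-1 form that keratinocytes store, had 0 reads in each of WT1 to WT3 and 1, 1 and 0 reads in Null1 to Null3. These 2 reads lie under the floor of 3 counts, so no fold is given. Il1b (ENSMUSG00000027398), the secreted form released mainly by myeloid cells after cleavage by caspase-1, had 26, 5 and 70 reads in WT1 to WT3, or 20.2, 30.4 and 4.34 CPM. It had 47, 535 and 166 reads in Null1 to Null3, or 43, 16.9 and 32.5 CPM. WT3 was the lowest of the 6, and Null2 lay below WT1 and WT2, so the groups overlapped. The mean was 18.3 ± 13.1 CPM in the WT group and 30.8 ± 13.1 CPM in the Null group (SD, n = 3).

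The difference in Il1b did not pass and leaned on WT3. Over all libraries its log2 fold change, null minus wild type, was 1.35 (SE 0.62, edgeR adjusted p = 0.195, unadjusted 0.0483). Without WT3 it was 0.35 (edgeR adjusted p = 0.761), and without WT1 it was 2.35 (0.0509). The sum of macrophage markers was also lowest in WT3. So were the sums of neutrophil, mast cell, T and NK cell, fibroblast and endothelial markers, so this was not particular to macrophages. WT3 also had the largest shares of reads in no gene (12%) and of reads aligned more than once (40%). The 12 macrophage genes summed to 6876, 6859 and 3835 CPM in WT1 to WT3 and to 7750, 6318 and 7715 CPM in Null1 to Null3. Single markers differed, since Lyz2 was lowest in WT3 like the sum, while Csf1r and C1qa were lowest in Null1. Of 4 tested neutrophil markers 1 rose, beside 2.26% of all genes tested, and their median log2 fold change was 1.52. S100a9, a calcium-binding protein abundant in neutrophils, rose, with 4.88 ± 2.19 CPM in the WT group and 25.2 ± 6.3 CPM in the Null group (SD, n = 3; log2 fold change 2.84, edgeR adjusted p = 0.00548). Its partner S100a8 stood at 2.14 (edgeR adjusted p = 0.0641) and Csf3r, the receptor of the growth factor G-CSF and the most abundant of the list, at -0.43 (0.291). The list summed to between 62.5 and 91.3 CPM in the WT group and between 82.4 and 104 CPM in the Null group, with Ly6g at 0 in all 6 libraries. The part of these cells in the Il1b values was not tested. An antisense gene, Il1bos, overlaps Il1b and had at most 4 reads in a library.

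Il1rn and Il1r1 showed smaller differences. Il1rn (ENSMUSG00000026981), the receptor antagonist, stood at 10.9, 36.5 and 11 CPM in WT1 to WT3 and at 23.8, 21.2 and 19.8 CPM in Null1 to Null3. The value of WT2 rests on 6 reads, and it was the highest of the 6, so the groups overlapped. The log2 fold change was 0.70 (SE 0.40, edgeR adjusted p = 0.292). Il1r1 (ENSMUSG00000026072), the signalling receptor of both IL-1 forms, stood at 34.9, 30.4 and 33.2 CPM in the WT group and at 49.4, 49.7 and 36.8 CPM in the Null group. All null values lay above all wild-type values, as they did for 16.3% of all tested genes. The log2 fold change was 0.43 (SE 0.26, edgeR adjusted p = 0.319). A gene on the same strand, Gm38070, overlaps Il1r1 and is not among the deposited genes. Any reads from it in shared sequence cannot be told apart from those of Il1r1.

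The reads of antagonist and ligand can be compared within a library, free of its depth and scaling. Exon length was not corrected for, with 5535 bases for Il1rn and 1907 for Il1b. The shares are therefore of reads and not of transcripts, and more Il1rn reads need not mean more Il1rn transcripts. Il1rn took 35%, 54.5% and 71.7% of the Il1rn and Il1b reads in WT1 to WT3, with exact 95% binomial intervals of 20.6% to 51.7%, 23.4% to 83.3% and 65.6% to 77.2%. In Null1 to Null3 the share was 35.6%, 55.7% and 37.8%, with intervals of 24.7% to 47.7%, 52.9% to 58.5% and 32% to 43.9%. The shares of the groups overlapped. WT3 and Null2 had more Il1rn than Il1b reads beyond counting error, and Null1 and Null3 had fewer. The intervals of Null2 and Null3 did not meet.

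**Figure D2:**
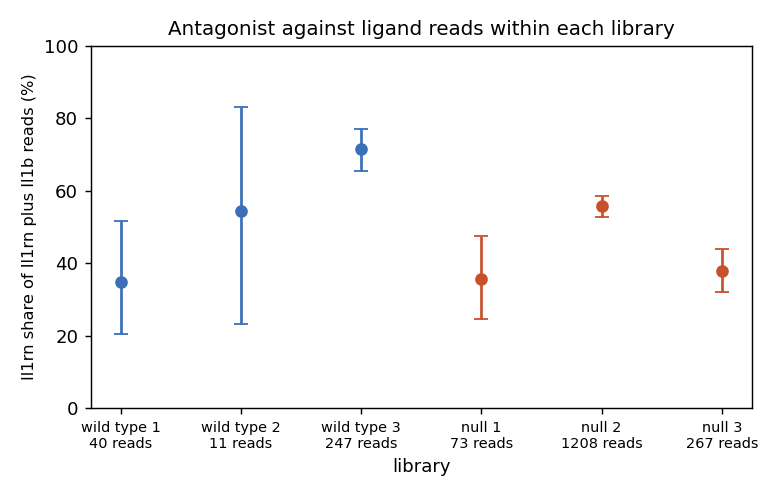
Points give the Il1rn share of the Il1rn and Il1b reads in percent for each library, with the reads of both genes printed under it; bars are exact 95% binomial intervals and cover counting error only. WT3 was highest at 71.7%, while WT1 at 35% lay just below the null range of 35.6% to 55.7% and WT2 within it. The shares are of reads and are not corrected for exon length.

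Of the other IL-1 genes that passed the expression filter, the decoy receptor and ST2 had the largest fitted increases, and neither was called. Il1r2, which encodes a receptor that binds IL-1 without signalling, had 2, 0 and 20 reads in WT1 to WT3 and 5, 141 and 33 in Null1 to Null3. Its mean was 0.931 ± 0.821 CPM in the WT group and 5.16 ± 1.12 CPM in the Null group (SD, n = 3), with no overlap (log2 fold change 2.03, edgeR adjusted p = 0.0618). Null values lay wholly above wild-type values for 16.3% of all tested genes. Il1rap, the accessory chain, had a fitted log2 difference of -0.17 (SE 0.57, edgeR adjusted p = 0.88), and its sign turned in some other fits. Of 13 tested receptor and signalling genes of the IL-1 family 0 changed by edgeR or by DESeq2, and 2 had an unadjusted p under 0.05 by edgeR. Irak2, a kinase downstream of MyD88, fell short of the threshold at -1.13 (edgeR adjusted p = 0.0547). Of 9 genes of IL-1 processing and the inflammasome 0 changed by either tool, and 2 had an unadjusted p under 0.05 by edgeR. Over all genes tested 25.1% had an unadjusted p of at most 0.05 by edgeR. Casp1, the caspase that cleaves the IL-1 beta precursor, stood at 91.7 ± 12.1 CPM in the WT group and 122 ± 21.5 CPM in the Null group (edgeR adjusted p = 0.286). The IL-36 ligands Il36a and Il36b, the antagonist Il36rn and Il1f10 had 0 reads in all 6 libraries.

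IL-33 transcripts were present in every library, and the groups overlapped. Il33 (ENSMUSG00000024810), a nuclear cytokine released from damaged cells, stood at 14.7, 18.3 and 10.9 CPM in WT1 to WT3 and at 29.3, 14.7 and 18 CPM in Null1 to Null3. Null1 was the highest, and the other null libraries lay within the wild-type range. The log2 fold change was 0.61 (SE 0.38, edgeR adjusted p = 0.336). Its receptor gene Il1rl1 stood at 91.6, 85.2 and 137 CPM in the WT group and at 311, 156 and 139 CPM in the Null group. Null values of Il1rl1 lay above wild-type values, as for 16.3% of all tested genes, without passing (log2 fold change 0.87, SE 0.34, edgeR adjusted p = 0.133). Mast cells carry ST2, and 5 of 7 mast cell markers rose by edgeR, beside 2.26% of all genes tested. Each of these 5 calls held in only 1 or 2 of the 6 fits that each dropped 1 library, and DESeq2 called 3. The 7 markers summed to 946, 1041 and 374 CPM in WT1 to WT3 and to 2049, 1409 and 4695 CPM in Null1 to Null3. The order differed within the null group, since Il1rl1 was highest in Null1 and the markers in Null3, and the part of mast cells in the Il1rl1 values was not tested.

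TSLP transcripts rose in the Null tumours. Tslp (ENSMUSG00000024379) had 1, 1 and 52 reads in WT1 to WT3 and 11, 335 and 57 in Null1 to Null3. These are 0.776, 6.09 and 3.23 CPM in the WT group, against 10.1, 10.6 and 11.2 CPM in the Null group. The null values lay close together and above every wild-type value, and the wild-type values of libraries 1 and 2 rest on a single read each. The mean was 3.36 ± 2.66 CPM in the WT group and 10.6 ± 0.544 CPM in the Null group (SD, n = 3). The fold change was 3.85 (log2 1.94, SE 0.49, edgeR adjusted p = 0.039). Over pooled reads, to which the deepest libraries give most, the ratio of null to wild type was 3.46 (95% exact interval 2.6 to 4.69, counting error only). A gene on the other strand, 4930455D15Rik, overlaps Tslp and is not among the deposited genes. With no strand setting given, its reads cannot be told apart from those of Tslp.

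The direction for Tslp held in each fit that dropped 1 library, but the call held in 1 of these 6, the fit without WT2 (edgeR adjusted p = 0.0463). In the others the adjusted p ran from 0.0573, without WT1, to 0.161, without Null3. Without WT3 the wild-type group kept 2 reads, and the ratio of pooled reads was 7.73 (95% exact interval 2.12 to 64). It did not pass either with libraries of 1 mouse number summed in both groups (edgeR adjusted p = 0.0833), and it passed with only WT1 and WT2 summed (0.046). The receptor chain Crlf2 stood at 28.4 ± 11.7 CPM in the WT group and 23.1 ± 8.34 CPM in the Null group (SD, n = 3; log2 fold change -0.34, edgeR adjusted p = 0.561). Il7r, the other chain, had 0, 0 and 46 reads in WT1 to WT3 and 2, 32 and 18 in Null1 to Null3, and was not tested. Of 5 tested genes of TSLP reception and signalling 0 changed by edgeR or DESeq2. By edgeR 1 had an unadjusted p under 0.05, beside 25.1% of all genes tested.

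The genes whose log2 CPM followed Tslp most closely over the 6 libraries were Kctd7, Angptl1 and Wnt5a, with Pearson correlations of 0.99, 0.98 and 0.98. These 6 points share genotype and depth, and the values describe likeness only. Angptl1, a secreted angiopoietin-like protein, rose (log2 fold change 3.23, edgeR adjusted p = 0.0111). Kctd7 (0.60, edgeR adjusted p = 0.387) and Wnt5a (0.63, edgeR adjusted p = 0.186) did not pass.

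In the IL-6 family, Lif was lower in the Null tumours by a value just outside the threshold, and 1 wild-type library decided its size. Lif (ENSMUSG00000034394), the leukaemia inhibitory factor, had 15, 1 and 491 reads in WT1 to WT3 and 6, 270 and 33 in Null1 to Null3. These are 11.6, 6.09 and 30.5 CPM in the WT group and 5.49, 8.52 and 6.46 CPM in the Null group. WT3 stood far above the others, and WT2, with its 1 read, lay inside the null range. The log2 fold change was -1.52 (SE 0.43, edgeR adjusted p = 0.0562). Without WT3 it was -0.57 (edgeR adjusted p = 0.604), and without WT1 it was -1.83 and passed (0.0234). Lif also passed with no filter on low counts (edgeR adjusted p = 0.0371) and with a random effect for mouse number (limma-voom adjusted p = 0.0331).

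Osm had the same sign as Lif and did not pass. Osm (ENSMUSG00000058755), oncostatin M, a cytokine of myeloid and T cells, had 12, 1 and 91 reads in WT1 to WT3 and 0, 110 and 23 in Null1 to Null3. These are 9.31, 6.09 and 5.64 CPM in the WT group and 0, 3.47 and 4.5 CPM in the Null group. All null values lay below all wild-type values, as they did for 14.2% of all tested genes. The log2 fold change was -1.07 (SE 0.61, edgeR adjusted p = 0.287), and Osm passed the filter in 3 of the 6 fits that each dropped 1 library.

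Il6 and Il11 were scarce in all tumours. Il6 (ENSMUSG00000025746), the founding cytokine of the family, had 1, 0 and 9 reads in WT1 to WT3 and 2, 28 and 4 in Null1 to Null3, at most 1.83 CPM. The ratio of pooled reads, null to wild type, was 1.58, with a 95% exact interval of 0.762 to 3.58 that includes 1. In the fit with no filter its log2 fold change was 0.74 (SE 1.09, edgeR adjusted p = 0.706). Il11 (ENSMUSG00000004371), a cytokine of stromal and epithelial cells, had reads only in the deepest library of each group, 4 in WT3 and 9 in Null2. The ratio of pooled reads was 1.04 (95% exact interval 0.291 to 4.64), so a change of a few-fold either way was not detectable at this depth.

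**Figure D3:**
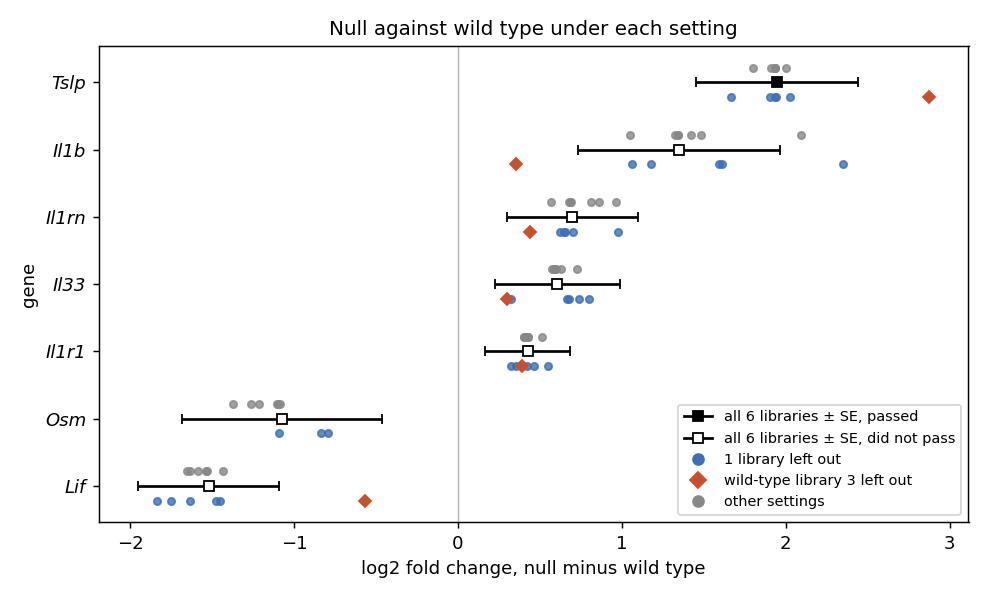
The log2 fold change, null minus wild type, is plotted for the 7 tested genes; squares with bars are the value ± SE over all 6 libraries, filled where the adjusted p was at most 0.05, and dots are other settings. Leaving out WT3 (diamonds) moved Il1b from 1.35 to 0.35 and Lif from -1.52 to -0.57.

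Per kilobase of exon, Il1b had the highest group mean of the 10 transcripts in both groups and Il1a, Il6 and Il11 the lowest. The first rank did not hold in WT3, where Il1b had 4.34 CPM over 1907 bases of exon and Lif 30.5 CPM over 4350. In the WT group the group means were 9.61 CPM per kilobase for Il1b, 5.17 for Il1r1, 5.07 for Il33, 3.69 for Lif, 3.51 for Il1rn, 3.09 for Osm and 2.53 for Tslp. In the Null group they were 16.1 for Il1b, 7.96 for Tslp, 7.16 for Il33, 7.12 for Il1r1, 3.9 for Il1rn, 1.57 for Lif and 1.17 for Osm. Tslp ranked seventh in the WT group and second in the Null group. Neighbours such as Il33 and Il1r1 in either group differed by less than their spread over libraries.

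The receptor genes of the 4 IL-6 family cytokines described here, Il6ra, Il11ra1, Lifr, Osmr and Il6st, had reads in every library and none passed. Lifr, the LIF receptor chain, stood at 64.4, 79.1 and 61.4 CPM in WT1 to WT3 and at 39.4, 45.7 and 38.4 CPM in Null1 to Null3. The groups did not overlap (log2 fold change -0.67, SE 0.24, edgeR adjusted p = 0.111). The null values of Il6ra, the IL-6 receptor (-0.72, edgeR adjusted p = 0.298), and Il11ra1, the IL-11 receptor (-0.64, 0.153), also lay below the wild-type values. Such a separation downwards was seen for 14.2% of all tested genes. Osmr, the oncostatin M receptor chain, stood at -0.55 (edgeR adjusted p = 0.256) and Il6st, the shared gp130, at -0.21 (0.621), both with overlap. Of 13 tested receptor and signalling genes of the family 0 changed by edgeR or DESeq2. By edgeR 2 had an unadjusted p under 0.05, beside 25.1% of all genes tested. Stat3 stood at 153 ± 48.6 CPM in the WT group and 164 ± 29.5 CPM in the Null group, and its feedback inhibitor Socs3 at 95.7 ± 42.9 and 84.7 ± 14.3 CPM (SD, n = 3).

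Of 2 tested genes among the other IL-6 family ligands 0 changed by edgeR or DESeq2. By edgeR 1 of them, Ebi3, had an unadjusted p under 0.05 (log2 fold change -1.14, edgeR adjusted p = 0.181). Clcf1, which encodes cardiotrophin-like cytokine factor, had 46, 2 and 1301 reads in WT1 to WT3 and 33, 961 and 190 in Null1 to Null3. These are 35.7, 12.2 and 80.7 CPM in the WT group and 30.2, 30.3 and 37.2 CPM in the Null group. WT3 was the highest of the 6 and WT2, with 2 reads, the lowest, so the groups overlapped (log2 fold change -0.70, SE 0.37, edgeR adjusted p = 0.256).

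Genes known to be induced by IL-1 and NF-kB differed widely from each other. Of 14 tested, 4 rose and 0 fell by edgeR, beside 2.26% upwards and 3.52% downwards over all genes tested. DESeq2 called 5. The fitted values of 12 lay above 0 and those of 2 below, beside 6027 of 11887 above 0 over all genes tested. The median log2 fold change was 0.39, beside a median of 0.01 over all genes tested. Mmp3, the matrix metalloproteinase stromelysin-1, stood at 121, 73 and 57.2 CPM in WT1 to WT3 and at 2012, 1203 and 962 CPM in Null1 to Null3. Its groups were far apart (log2 fold change 4.04, SE 0.41, edgeR adjusted p = 0.00023), and it passed in all 6 fits that each dropped 1 library. Ptgs2, the inducible cyclooxygenase COX-2, stood at 12.4, 6.09 and 7.13 CPM in the WT group and at 220, 41.2 and 117 CPM in the Null group. It rose 14.2-fold (log2 3.83, SE 0.60, edgeR adjusted p = 0.00409), a call lost without WT3 (0.157).

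The neutrophil chemokines Cxcl1 and Cxcl5 rose by smaller amounts. Cxcl1 stood at 4.55 ± 3.99 CPM in the WT group and 25.4 ± 10.9 CPM in the Null group (SD, n = 3; log2 fold change 1.86, edgeR adjusted p = 0.0379). Cxcl5 stood at 19.1 ± 12.2 and 62.2 ± 17 CPM (log2 fold change 1.32, edgeR adjusted p = 0.0391). Their calls held in 1 and 2 of the 6 fits that each dropped 1 library, and the adjusted p of edgeR reached 0.144 and 0.16, both without Null1. With mouse number as a random effect neither passed (limma-voom adjusted p = 0.187 and 0.0978). Genes of NF-kB inhibitors, which NF-kB itself induces, did not pass. Nfkbia had a fitted log2 difference of 0.14 (edgeR adjusted p = 0.96) and Tnfaip3 one of 0.17 (0.792). Saa3, an acute phase gene, stood at -1.44 (edgeR adjusted p = 0.171). The chemokine gene Ccl2 stood at 99.2 ± 12.4 CPM in the WT group and 187 ± 51.6 CPM in the Null group (SD, n = 3). It did not pass (log2 fold change 0.93, edgeR adjusted p = 0.063). Its null values lay above its wild-type values, as for 16.3% of all tested genes.

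Of 14 genes known to be induced by STAT3, 1 rose and 0 fell, beside 2.26% and 3.52% of all genes tested. Their median log2 fold change was -0.23. Cebpd, a transcription factor of the acute phase response, stood at 24.8, 18.3 and 58.7 CPM in WT1 to WT3 and at 190, 74.4 and 113 CPM in Null1 to Null3. The groups did not overlap (log2 fold change 1.60, SE 0.41, edgeR adjusted p = 0.0395), and the call held in 2 of the 6 fits that each dropped 1 library. Its highest edgeR adjusted p was 0.184, without Null1. It did not pass when mouse number was a random effect (limma-voom adjusted p = 0.0805). Of 7 other epithelial cytokines tested, 0 rose and 2 fell, beside 2.26% and 3.52% of all genes tested. Csf1, the macrophage growth factor, fell, with 459 ± 35.5 CPM in the WT group and 201 ± 62.4 CPM in the Null group (SD, n = 3; log2 fold change -1.18, edgeR adjusted p = 0.0333). Hbegf, a ligand of the epidermal growth factor receptor, fell, with 34.4 ± 11.6 against 17.2 ± 3.47 CPM (log2 fold change -1.19, edgeR adjusted p = 0.0414). Both calls held in 2 of the 6 fits that each dropped 1 library. The highest edgeR adjusted p was 0.107 for Csf1, without Null1, and 0.205 for Hbegf, without WT3. Neither passed with libraries of 1 mouse number summed in both groups (edgeR adjusted p = 0.125 and 0.122), and Hbegf did not pass by DESeq2 (adjusted p = 0.102).

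**Figure D4:**
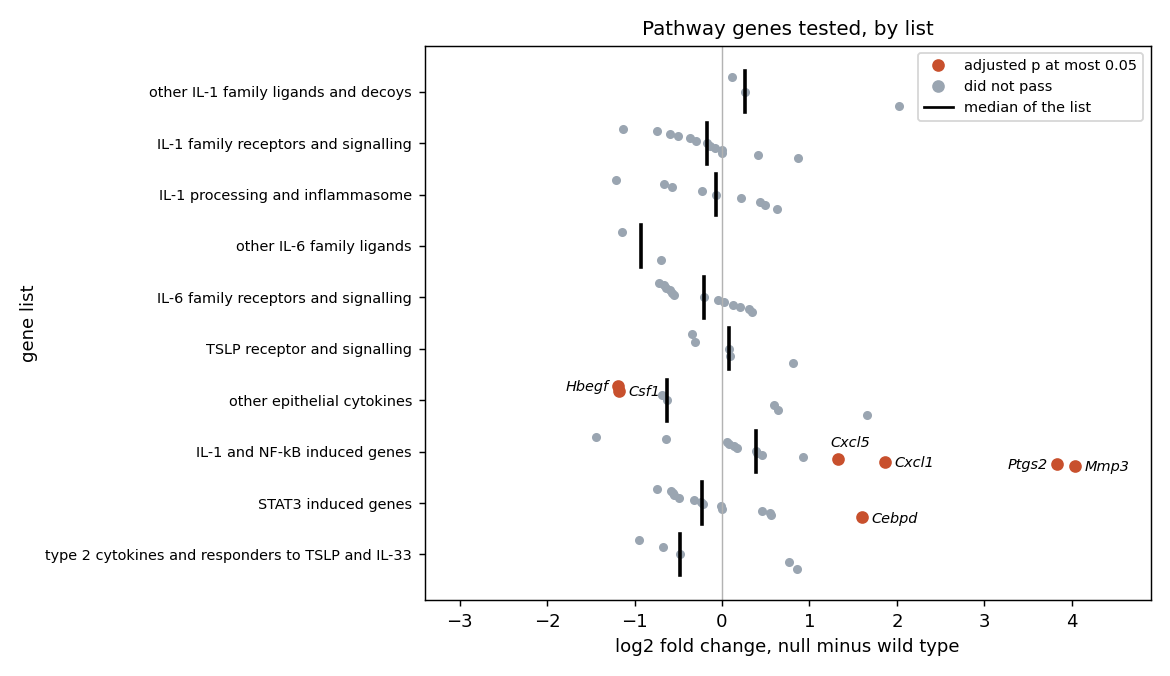
Each row is a list of pathway genes, each dot a tested gene at its log2 fold change, null minus wild type, and the black line the median of the list; named dots had an adjusted p of at most 0.05. The receptor and signalling lists hold no called gene, and the list of genes induced by IL-1 and NF-kB holds 4, all above 0.

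**Figure D5:**
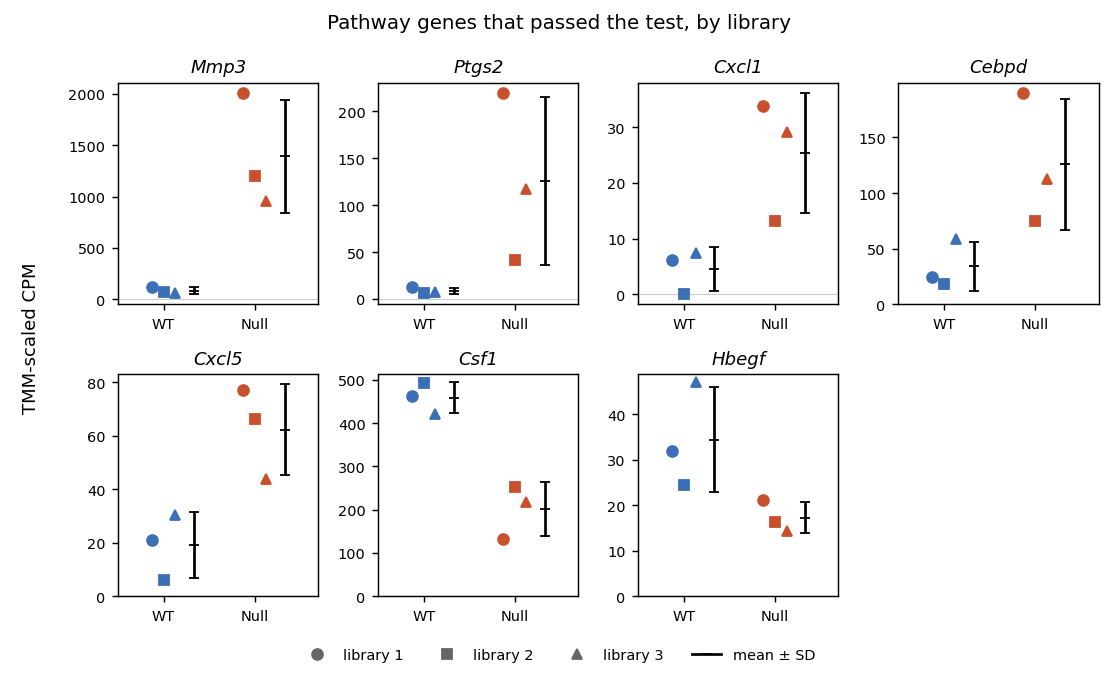
TMM-scaled CPM by library for the 7 pathway genes that passed, with groups on the horizontal axis and the mean ± SD of 3 libraries as the black bar. The null values of Mmp3, Ptgs2, Cxcl1, Cebpd and Cxcl5 lay above all wild-type values, and those of Csf1 and Hbegf below.

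Over all pathway lists, 5 of 84 tested genes rose and 2 fell, beside 2.26% upwards and 3.52% downwards over all genes tested. The tissue around these genes also differed, since 8 of 9 tested skeletal muscle markers fell. Their 10 genes summed to between 517 and 1360 CPM in the WT group and between 36.4 and 104 CPM in the Null group. Fibroblast markers, which mark cells that can make Mmp3, Il11 and Lif, included 2 genes that rose and 2 that fell of 10. They summed to 15436, 14807 and 8273 CPM in WT1 to WT3 and to between 15101 and 17585 CPM in the Null group. The part of these tissues in the cytokine values was not tested.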

How the data were processed

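Per the submitters' processing notes, TopHat2, Cuffdiff, DESeq2 and mouse build mm9 were used, with no role or version; the sources used here do not give the counting program, strand setting or annotation, and without strand reads of antisense genes cannot be told apart. The authors deposited raw read counts per Ensembl gene, 1 file per library, and the lines for reads in no gene, ambiguous or aligned more than once (4.63% to 12%, 1.72% to 2.11% and 32.9% to 40% of listed reads) stayed out of totals and tests. Symbols came from a GENCODE annotation of a later build, which matched 32919 of 37991 identifiers, with newer names looked up among RefSeq synonyms; its exon lengths served for levels per kilobase.

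Null was compared with wild type in R 4.3.3 with edgeR 4.0.16 (robust quasi-likelihood test, TMM, default filter), adjusted by Benjamini-Hochberg over all 11887 genes tested at 0.05, after a check on simulated data. Alternatives were DESeq2 1.42.0 or its size factors, other filters, each library left out, libraries of a shared mouse number summed, and mouse number as a random effect (limma 3.58.1, voom). SE is the fold change over the root of its F statistic. Intervals and the floor of 3 counts cover counting error only. As some libraries share a mouse number and may not be separate animals, p-values reflect only how these samples vary, perhaps for technical reasons.

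The 10 genes and all lists were chosen with earlier results of these data known. Named besides them are their receptors, up to 4 called genes a list with the largest fold change, and the 3 genes most correlated with a called member; other named genes were chosen after their values were seen. A gene left out of the lists and their counts is not reported here.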

Additional observations from a re-analysis of the deposited data

How the results depend on the processing

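The count of changed genes was 688, and between 179 and 855 with 1 library left out, lowest without Null1 (225 without Null3 and 281 without WT3). Of the 10 cytokine genes 1 changed, with 0 to 1 when 1 library was left out. That count was 2 with no filter on low counts (Tslp and Lif), and 0 with DESeq2, with at least 10 CPM in 3 libraries (where Tslp was not tested) and with libraries of 1 mouse number summed in both groups. It stayed 1 without WT1 and with a random effect for mouse number, but the gene was then Lif. For Tslp the adjusted p was 0.116 with DESeq2 and 0.068 with the random effect (limma-voom). The pathway genes that changed numbered 7, between 2 (without Null1) and 5 with 1 library left out, 3 with WT1 and WT2 summed (Cxcl1, Cxcl5, Cebpd and Csf1 then missed the threshold) and 4 with a random effect for mouse number. Il1a, with 2 reads, stood at 2.90 with no filter and at -0.43 with DESeq2. Il1rap stood at -0.17, and ran from -0.91 without WT3 to 0.65 without WT1, with 0.04 and 0.10 without Null2 and Null3; it was 0.081 with both pairs summed and 0.22 with the random effect. The cause of these shifts was not tested. No other value of the cytokine genes turned its direction in the alternatives run. No paired analysis was possible because the labels give no number shared by a wild-type and a null library. Depth limits Il1a, Il6 and Il11 throughout, and any gene under about 6.09 CPM in WT2, where that is 1 read.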

Other observations

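Type 2 cytokines, which TSLP and IL-33 are known to elicit from lymphocytes, were close to undetected. Il9 and Il13 had 0 reads in all 6 libraries, Il4 had 1 and 3 reads in Null2 and Null3 and none elsewhere, and Il5 had 1 read in WT3 and 7 and 1 in Null2 and Null3. Of 5 tested genes of this list 0 changed (edgeR or DESeq2, adjusted p at most 0.05) and by edgeR 0 had an unadjusted p under 0.05. The chemokine genes Ccl17, Ccl22 and Ccl24, products of dendritic cells and macrophages in type 2 responses, stood at log2 fold changes of -0.67, 0.86 and 0.77 (edgeR adjusted p = 0.473, 0.298 and 0.488).

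Within libraries, Lif took 55.6%, 50% and 84.4% of the Lif and Osm reads in WT1 to WT3 and 100%, 71.1% and 58.9% in Null1 to Null3, where the totals were 27, 2, 582, 6, 380 and 56 reads. The exact 95% binomial interval of WT3 (81.2% to 87.2%) did not meet that of Null2 (66.2% to 75.6%), and those of the shallow libraries were wide. These shares are of reads and not of transcripts, since exon length is 4350 bases for Lif and 2272 for Osm.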
